A study of Homo sapiens with 15 samples.

Results

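The genes described here were 40 human genes of homologous recombination, the Fanconi anaemia pathway and the DNA damage checkpoint, chosen by name from a fixed list and found by their Ensembl identifiers among the 58302 genes of each count table. They were followed in 3 RNA-seq libraries of C4-2B, an established human prostate cancer line derived from LNCaP and labelled Adenocarcinoma with a Wild type genotype. The cells were grown in RPMI with fetal bovine serum, no treatment was labelled, and rRNA-depleted directional libraries were made from total RNA. The study also labelled 4 groups of neuroendocrine-like lines (DKD_scr, DKD_siPax5, ER_scr and ER_SiPax5), which were not analysed here, so no treatment or line was compared.

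Homologous recombination repairs a broken chromosome by copying the sister chromatid. The broken ends are trimmed to single strands, the strands are coated with a recombinase with the help of the BRCA proteins, and the joined molecules are then separated by helicases or nucleases. The Fanconi proteins recognise crosslinks between the DNA strands, mark the site with ubiquitin and pass it to the same machinery, while the kinases ATM and ATR halt the cell cycle. In advanced prostate cancer, inherited and acquired mutations of BRCA2, ATM, CDK12 and other genes of this group are known, and tumours with such defects are treated with PARP inhibitors.

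The libraries held 44992971, 49569026 and 46232076 counted reads in replicates 1, 2 and 3. The labels did not say whether they came from separate cultures, so the spread between them may be technical. Levels are given as TPM, the reads of a gene divided by its exon length and scaled so that each library has the same total. All 6 luminal prostate markers were expressed, with a summed level of 3190 to 3210 TPM in each library, led by KLK3 at 1988 ± 21.1 TPM (SD, n = 3). The neuroendocrine list summed to 2.66 to 3.18 TPM with 2 of 4 genes expressed, and the basal list to 0.787 to 0.998 TPM with 0 of 3. For fibroblasts the sum was 6.43 to 7.56 TPM, carried by COL1A1, with DCN and COL1A2 at 0 counts. The endothelial list reached 2.704 to 3.29 TPM, carried by VWF, and the leukocyte list 0.174 to 0.720 TPM. The library labels and the luminal markers thus pointed to the same cell type.

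The promoters at the ends of the range of levels are shown first, so that the letters around the starts can be read beside the values. RefSeq promoter windows (GRCh38.p14), each running from 250 bases before to 50 bases after the start that RefSeq gives the gene, were found for 37 of the 40 genes. NBN, WRN and FANCI had no entry. The windows of the most abundant gene, of the least abundant pair and of FANCD2, which lies head to head with another gene and carries E2F letters, read 5′ to 3′ on the gene's own strand as follows. They lie at chr1:226408044-226408343 on the minus strand for PARP1, and on the plus strand at chr5:132556727-132557026 for RAD50, chr3:48446487-48446786 for ATRIP and chr3:10026187-10026486 for FANCD2. Capitals mark E2F letters or a CCAAT box on either strand, and windows without capitals hold neither. The RefSeq start of RAD50 lies inside the gene as Ensembl draws it.
PARP1: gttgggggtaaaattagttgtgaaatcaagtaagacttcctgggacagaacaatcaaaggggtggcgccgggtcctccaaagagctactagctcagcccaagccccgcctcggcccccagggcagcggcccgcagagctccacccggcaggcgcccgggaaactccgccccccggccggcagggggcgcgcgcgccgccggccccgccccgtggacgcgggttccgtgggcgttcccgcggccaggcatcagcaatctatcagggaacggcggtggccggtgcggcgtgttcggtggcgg
RAD50: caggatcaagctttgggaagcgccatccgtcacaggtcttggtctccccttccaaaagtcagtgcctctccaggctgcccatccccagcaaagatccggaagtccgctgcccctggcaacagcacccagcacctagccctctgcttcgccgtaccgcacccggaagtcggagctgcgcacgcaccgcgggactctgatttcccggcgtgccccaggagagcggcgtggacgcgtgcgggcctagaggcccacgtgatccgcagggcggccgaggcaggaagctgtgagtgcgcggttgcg
ATRIP: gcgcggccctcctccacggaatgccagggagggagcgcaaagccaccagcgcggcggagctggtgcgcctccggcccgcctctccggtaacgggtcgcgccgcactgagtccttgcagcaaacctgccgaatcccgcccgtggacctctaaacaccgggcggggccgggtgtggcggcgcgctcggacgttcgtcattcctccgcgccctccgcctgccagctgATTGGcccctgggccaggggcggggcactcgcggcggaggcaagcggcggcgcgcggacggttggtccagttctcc
FANCD2: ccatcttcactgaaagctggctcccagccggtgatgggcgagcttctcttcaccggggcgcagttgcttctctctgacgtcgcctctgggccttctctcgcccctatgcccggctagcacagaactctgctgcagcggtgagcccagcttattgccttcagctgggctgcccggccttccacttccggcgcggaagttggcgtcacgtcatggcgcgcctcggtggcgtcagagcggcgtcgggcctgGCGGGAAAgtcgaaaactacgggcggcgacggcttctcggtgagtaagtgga

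These windows were rich in G and C, as were most of the others. The median GC content of the 37 windows was 64.3%, beside 62.3% over 21548 promoters of protein-coding genes. The ratio of observed to expected CpG was at least 0.6 in 35 of 37 windows (94.6%), beside 62.7% of protein-coding promoters and 48.9% of all 35116 promoters. The exceptions were CHEK1, with a ratio of 0.528, and RAD51B, with 0.258 in a window of 32.3% GC whose RefSeq start lies inside the annotated gene.

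Letters of known promoter elements were searched on both strands, and none of the motifs contains the letters of another. The E2F letters (TTTCCCGC, TTTCGCGC, TTTGCCGC or TTTGGCGC) stood in 4 windows (10.8%), those of FANCA, FANCC, FANCD2 and XRCC2, beside 3.31% of all and 4.11% of protein-coding promoters. E2F factors are known for turning on genes of DNA synthesis. In FANCD2 the match was on the minus strand and its first letter lay 2 bases before the RefSeq start. The ETS letters CCGGAAG stood in 12 windows (32.4%), beside 10.3% of all and 12.9% of protein-coding promoters. GGGCGG, the letters bound by SP and KLF factors, stood in 27 windows (73.0%), beside 45.0% and 56.8%. CCAAT stood in 14 (37.8%), beside 34.6% and 34.8%, a share near the background. TTTGAA, the core of the cell cycle homology region, stood in 4 windows (10.8%), beside 15.2% and 12.4%. TGACGTCA, bound by CREB factors, stood in 3 windows (8.11%), beside 1.85% and 2.29%, and those were XRCC2, PARP2 and RAD51C. GCGCATGC (NRF1) stood in 2 windows (5.41%), beside 3.05% and 3.74%, and AAGATGGC (YY1) in 1 (2.7%), beside 2.89% and 3.58%. The TATAAA letters stood in 0 of 37 windows, beside 11.5% of all and 9.44% of protein-coding promoters. These matches describe the letters and were not tested as binding sites. The backgrounds were not matched to the 37 windows in CpG ratio or in expression, so the shares are no test of enrichment.

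Every one of the 40 genes was transcribed in C4-2B, and most at a moderate level. All 40 reached at least 1 TPM in each library, beside 61.2% of 19708 protein-coding genes. The median of the 40 mean levels was 23.7 TPM, close to the 22.1 TPM median of the 12059 protein-coding genes expressed, and 23 of the 40 lay above that median. In the separate libraries the median of the genes was 23.7, 23.7 and 24.7 TPM. Between 20 and 50 TPM lay 20 genes and between 10 and 20 TPM another 10, while 4 lay above 50 TPM and 2 below 5 TPM. The sum over the 40 genes was 1261, 1272 and 1291 TPM.

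**Figure D1:**
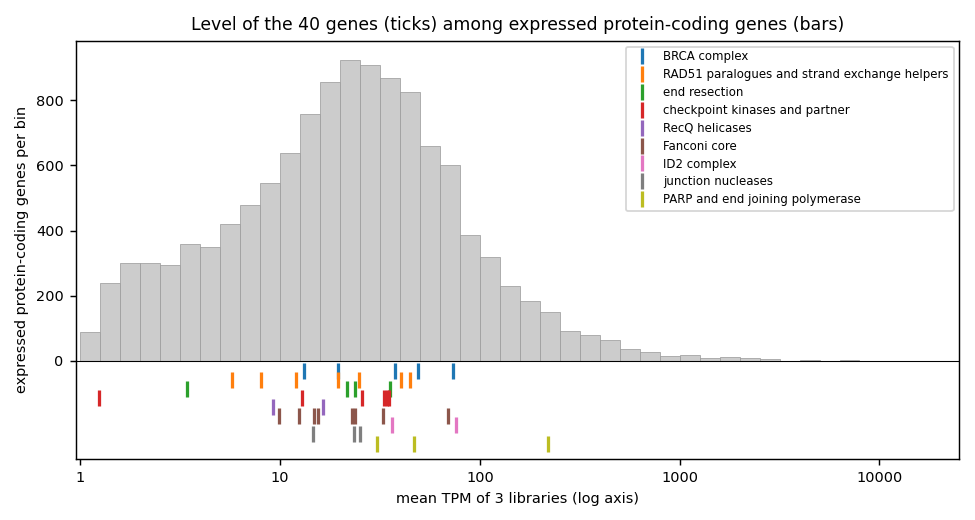
Mean level of the 40 genes over 3 C4-2B libraries (ticks below the axis, coloured by role, TPM on a log axis) under a histogram of the 12059 expressed protein-coding genes (bars, genes per bin). Most ticks lie under the tallest bars, with PARP1 at 220.0 TPM far to the right and ATRIP at 1.24 TPM at the left edge.

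Ranked by level, the genes formed a few separated steps and long stretches of overlap. PARP1 stood alone at the top, with its lowest library above the highest library of any other gene. FANCI and BARD1 overlapped in range, and FANCG and BRCA2 followed without overlap with their neighbours. From ATR down to PALB2, 10 successive genes each overlapped with the next in range, so that neighbours in this stretch were not separated, although ATR lay wholly above PALB2. At the bottom RAD51D, RAD50 and ATRIP were each separated from their neighbours. In all, 25 of 39 neighbouring pairs overlapped. With 3 libraries a two-sided sign-flip test between 2 genes cannot give a p below 0.25, so no test between genes was run.

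**Figure D2:**
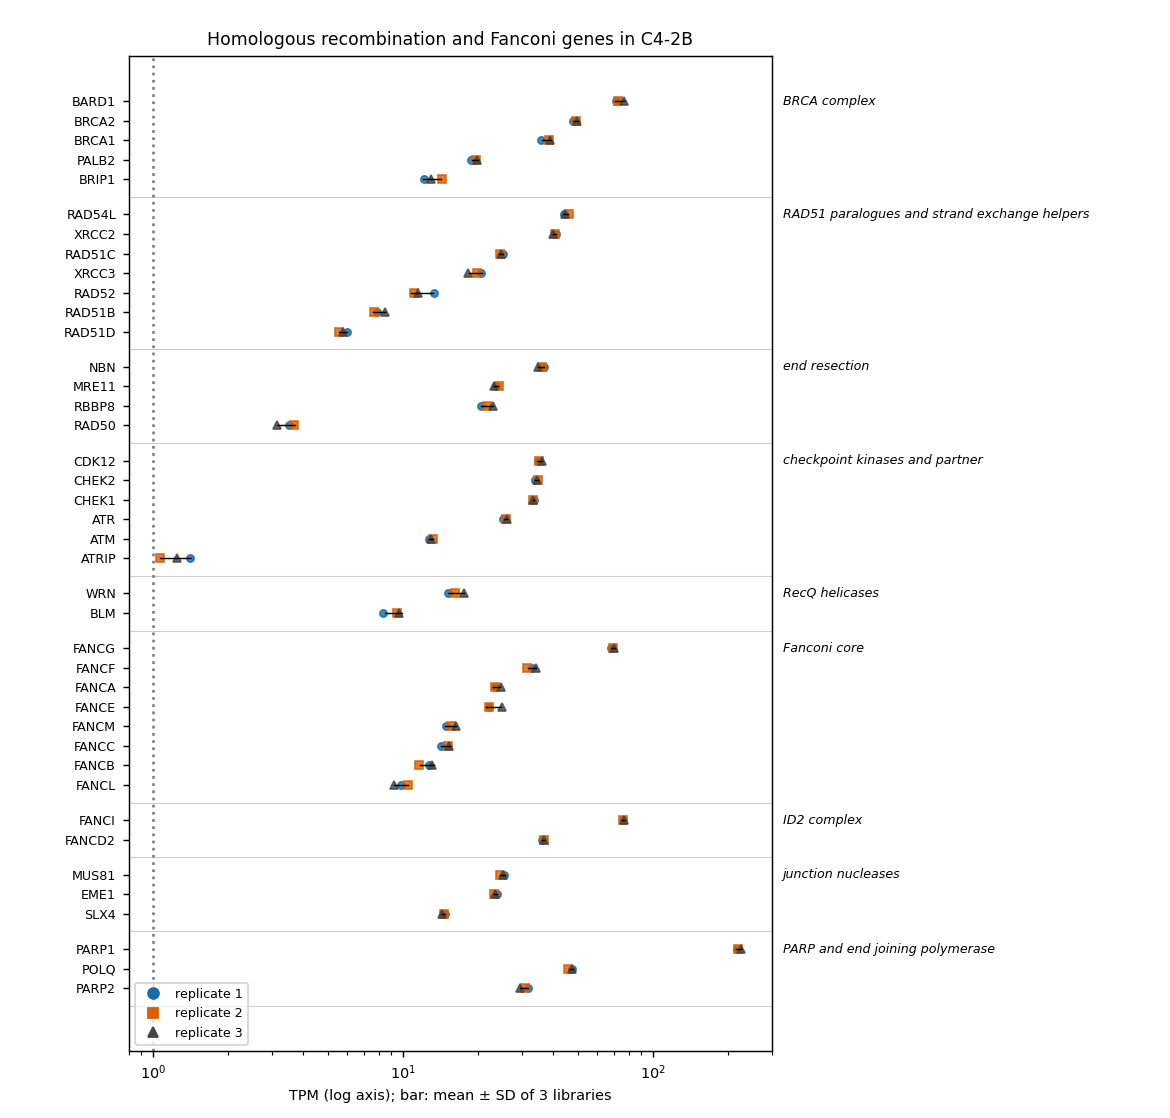
Level of each gene (TPM, log axis) in replicates 1, 2 and 3 (circle, square, triangle), grouped by role, with bars for the mean ± SD of the 3 libraries and a dotted line at 1 TPM. The symbols of a gene mostly cover each other, and the widest scatter is that of ATRIP, from 1.07 to 1.41 TPM.

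The genes of the BRCA complex were led by BARD1, the obligate partner of BRCA1 in its ubiquitin ligase. BARD1 (chr2:214725646-214809711, minus strand) was measured at 71.1, 72.2 and 76.9 TPM (mean 73.4 ± 3.07, SD, n = 3). BRCA2, which loads the recombinase onto single-stranded DNA, was at 47.7, 49.1 and 49.8 TPM. BRCA1 (chr17:43044295-43170245, minus strand), which directs broken ends towards recombination, was at 35.8, 38.3 and 38.7 TPM. The ranges of these genes did not overlap, and BRCA1 stood at 0.512 ± 0.0153 of BARD1 in the TPM of the same library. PALB2, the bridge between BRCA1 and BRCA2, was at 18.8, 19.7 and 19.9 TPM, a ratio to BRCA2 of 0.398 ± 0.00361. BRIP1, a helicase that binds BRCA1 and acts in crosslink repair, was the lowest of the group at 12.2, 14.3 and 13.0 TPM. In all 5 genes replicate 1 was the lowest library, and their sum was 186 TPM there against 194 and 198 TPM in replicates 2 and 3. The same 5 of 5 were lowest in replicate 1 after TMM scaling, while 37.7% of expressed protein-coding genes in the same range of levels were lowest in it by TPM and 33.0% after TMM.

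Among the paralogues of the recombinase and the strand exchange helpers, the highest level over the full exon length was that of RAD54L, a motor protein that drives strand exchange, at 43.98, 46.0 and 44.5 TPM. XRCC2 was next with 41.0, 40.5 and 39.9 TPM, and did not overlap with RAD54L. RAD51C, which belongs to both complexes that the paralogues form, was at 25.1, 24.3 and 24.7 TPM. The other members of the complex of RAD51B, RAD51C, RAD51D and XRCC2 were far apart. RAD51B was at 7.87, 7.68 and 8.50 TPM, and RAD51D was at 5.99, 5.54 and 5.77 TPM. RAD51D thus lay at 0.142 ± 0.00516 of XRCC2, its direct partner, and RAD51C at 3.09 ± 0.156 times RAD51B. RAD52, which anneals complementary single strands, was at 13.4, 11.1 and 11.5 TPM. Replicate 1 stood above the others for RAD52, whose SD of 10.2% of the mean was the second widest after ATRIP. In this group 5 of 7 genes were highest in replicate 1, beside 31.5% of expressed protein-coding genes in the same range of levels. XRCC3, the partner of RAD51C in the smaller complex, was at 20.5, 19.9 and 18.3 TPM over its full exon length, but 76.7% of that length lay under exons of another gene. Over unshared exon bases alone XRCC3 was the highest of the group, at 79.9 TPM against 57.0 TPM for RAD54L.

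For the end resection genes, NBN, the sensor subunit of the MRE11 complex, was at 36.5, 35.9 and 34.7 TPM. MRE11, the nuclease, was at 23.5, 24.1 and 23.2 TPM, so that NBN stood at 1.51 ± 0.0382 times MRE11 and the ranges did not overlap. RBBP8, also called CtIP, which starts the trimming of the ends together with that complex, was at 20.5, 21.6 and 22.9 TPM. It differed between replicates 1 and 3 by more than MRE11 did, with an SD of 5.62% of the mean against 2.02%. RAD50, the ATPase that tethers the ends, was listed at 3.49, 3.68 and 3.13 TPM, 0.145 ± 0.00934 of MRE11. Exons of other genes covered 79.7% of its exon bases, and over its unshared bases it was at 16.1 TPM, 0.693 ± 0.0446 of MRE11.

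Of the checkpoint kinases, CHEK1, CHEK2 and CDK12 lay close to each other and ATM lay lowest. CHEK1, the effector kinase of ATR, was at 33.6, 33.2 and 33.2 TPM. Its SD of 0.635% of the mean was the smallest of the 40 genes, below the 2.47% expected from counting read pairs alone. CHEK2, the effector kinase of ATM, was at 33.8, 34.8 and 34.4 TPM. The ratio of CHEK1 to CHEK2 was 0.971 ± 0.0195 per length, and 1.54 ± 0.0308 when reads were not divided by length, so its direction turned with the unit. ATR, which responds to single-stranded DNA, was at 25.2, 25.8 and 26.0 TPM. ATM, which responds to double-strand breaks, was at 12.7, 13.2 and 12.9 TPM, and ATR stood at 1.98 ± 0.0241 times ATM. ATM has the longest exon set of the group, 23972 bases, and ranked 9 of 40 by CPM, the reads of a gene scaled to the library total without its length, and 32 of 40 by TPM. CDK12, a kinase of RNA polymerase II whose loss is known to lower long repair genes, was at 34.7, 34.9 and 36.1 TPM. ATRIP, the adaptor that brings ATR to DNA, was the lowest of all 40 genes, with 70, 58 and 63 reads and 1.41, 1.07 and 1.25 TPM. ATR was listed at 20.9 ± 3.18 times its partner, and at 6.44 ± 0.977 times over unshared exon bases, since 74.3% of the exon bases of ATRIP lay under another gene.

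The RecQ helicases were both modest. WRN, which is mutated in Werner syndrome, was at 15.2, 16.2 and 17.6 TPM. BLM, which undoes crossed junctions and is mutated in Bloom syndrome, was at 8.35, 9.50 and 9.66 TPM. WRN stood at 1.78 ± 0.0687 times BLM in level, without overlap, and both were lowest in replicate 1 and highest in replicate 3.

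In the Fanconi core complex, FANCG was the most abundant at 67.8, 69.4 and 70.2 TPM. FANCA, which FANCG binds directly, was at 23.4, 23.3 and 24.6 TPM, a ratio of 0.344 ± 0.00781. Without division by length that ratio was 0.926 ± 0.0210. FANCF, an adaptor encoded in a single exon block, was at 32.9, 31.5 and 33.9 TPM, and FANCE, which contacts FANCD2, was at 22.1, 22.1 and 24.9 TPM. FANCC, which joins FANCE and FANCF in a subcomplex, was lower at 14.1, 15.1 and 15.3 TPM. FANCM, the DNA motor that anchors the complex, was at 14.8, 15.5 and 16.3 TPM. The genes of the ligase and its scaffold were the lowest of these 8. FANCL, the ubiquitin ligase itself, was at 9.87, 10.5 and 9.23 TPM, and FANCB, its X-linked scaffold, was at 12.7, 11.6 and 13.1 TPM. Their ratio of 0.795 ± 0.102 was the least even of the ratios below 1. In 7 of the 8 core genes replicate 3 was the highest library, the exception being FANCL, which was lowest in it. Of expressed protein-coding genes in the same range, 38.5% were highest in replicate 3 by TPM and 33.2% after TMM.

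The substrates of that ligase, FANCI and FANCD2, were the steadiest pair. FANCI (chr15:89243949-89317261, plus strand) was at 75.6, 75.8 and 76.6 TPM, the second highest level of the 40 genes. FANCD2 (chr3:10026414-10101930, plus strand) was at 36.0, 36.6 and 36.5 TPM. Their SDs were 0.668% and 0.884% of the mean, below the 1.5% and 2.09% expected from counting read pairs alone. These SDs therefore do not show that the genes are steadier than others. The proteins pair with each other as a clamp on DNA, and FANCI was measured at 2.09 ± 0.0160 times FANCD2.

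The junction nucleases lay within a narrow band. MUS81, the catalytic subunit, was at 25.5, 24.4 and 25.2 TPM and its partner EME1 was at 23.9, 23.2 and 23.3 TPM, a ratio of 1.07 ± 0.0130; without division by length it was 1.77 ± 0.0216. SLX4, the scaffold that gathers several nucleases, was at 14.7, 14.6 and 14.3 TPM, 0.582 ± 0.0153 of MUS81. All 3 were highest in replicate 1, beside 31.5% of expressed protein-coding genes in the same range by TPM and 36.6% after TMM.

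PARP1, the abundant sensor of DNA nicks and the main target of PARP inhibitors, was the highest gene of the list. PARP1 (chr1:226360691-226408079, minus strand) was at 216, 219.6 and 224 TPM (mean 220.0 ± 4.19, SD, n = 3), above 96.3% of expressed protein-coding genes. PARP2, its smaller relative, was at 31.6, 30.7 and 29.4 TPM, so that PARP1 stood at 7.21 ± 0.400 times PARP2. The 2 genes ran in opposite order over the libraries, PARP1 being lowest and PARP2 highest in replicate 1. POLQ, the polymerase of end joining through short repeats, was at 47.3, 45.9 and 47.6 TPM, close to BRCA2 but without overlap in range.

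Of the 18 pairs of partners or relatives, 8 were at least 2-fold apart in level. The ratios themselves varied little between libraries, most with an SD within a few percent of the ratio, and the widest were ATR to ATRIP and FANCL to FANCB. Without division by length 7 pairs were at least 2-fold apart, and 9 when only the exon bases that no other gene covers were used as the length. These were not all the same pairs. Without length, FANCA to FANCG (0.926) and FANCI to FANCD2 (1.935) fell within 2-fold, and FANCE to FANCF (0.420) moved beyond it. Over unshared bases RAD50 to MRE11 (0.693) fell within 2-fold, and RAD51C to XRCC3 (0.296) and ATR to ATM (2.34) moved beyond it.

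**Figure D3:**
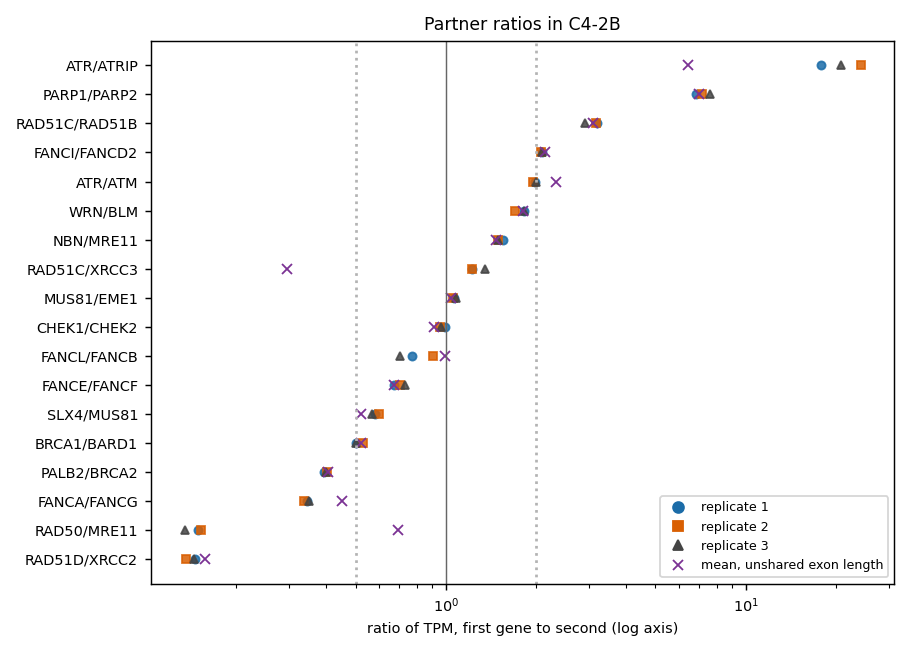
Ratio of the levels of 18 pairs (TPM of the first gene over the second, log axis) in replicates 1, 2 and 3, with dotted lines at 2-fold and a cross for the mean ratio when lengths leave out exon bases shared with other genes. The crosses move furthest from the libraries' symbols for RAD51C/XRCC3, RAD50/MRE11 and ATR/ATRIP, to 0.296, 0.693 and 6.44. Smaller shifts beyond the range of the libraries include FANCA/FANCG at 0.450, ATR/ATM at 2.34 and FANCL/FANCB at 0.99.

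Overlap with other genes bore on the lowest members. The authors' counting ignored strand and left out reads that touched exons of more than 1 gene, so shared exon bases kept their length but lost their reads. Some exon bases were shared in 25 of 40 genes (62.5%, beside 42.8% of protein-coding genes), and at least 10% of them in 9 genes (22.5%, beside 18.7%). For 3 genes the share was above 70%. RAD50 (chr5:132556019-132646344, plus strand) shared 79.7% of its exon bases, nearly all with ENSG00000283782, a same-strand protein-coding annotation that itself received 142 reads. ATRIP (chr3:48446710-48465716, plus strand) shared 74.3% with the same-strand annotation ENSG00000282827, which is not in GENCODE 44 and received 93 reads. XRCC3 (chr14:103697609-103715504, minus strand) shared 76.7% with KLC1 on the opposite strand.

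When the length was restricted to unshared exon bases, the computed levels of these 3 genes moved up by more than those of any other gene of the list. RAD50 went from 3.43 to 16.1 TPM, 4.69 times, over 1987 unshared bases, and ATRIP from 1.24 to 4.60 TPM, 3.70 times, over 879. XRCC3 went from 19.5 to 79.9 TPM, 4.09 times, and from rank 25 to rank 2. Its 1751 unshared bases lay to 95.3% in the last when the exons were cut into 3 equal parts, whereas those of RAD50 and ATRIP lay to 67.1% and 73.8% in the first. The ratio of RAD51C to XRCC3 turned from 1.27 ± 0.0758 to 0.296 ± 0.0177 and RAD50 to MRE11 moved from 0.145 to 0.693. ATRIP stayed the lowest gene on either length. Neither length is exact for reads that partly touch a shared base, and the true level of these 3 genes was not resolved by the counts.

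**Figure D4:**
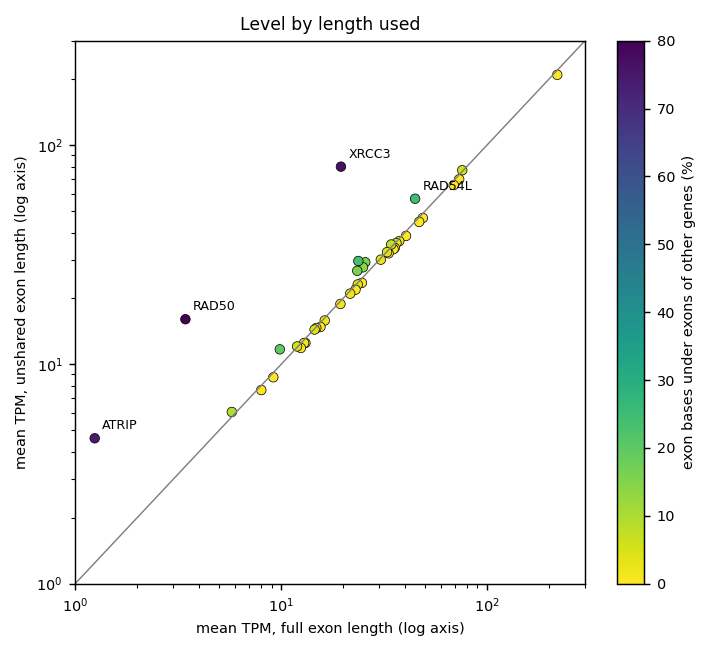
Mean level with the full exon length (x axis, TPM, log) against mean level with unshared exon bases as the length (y axis, TPM, log), 1 point per gene, coloured by the percentage of exon bases under exons of other genes. Points follow the line of equality except XRCC3, RAD50 and ATRIP, which lie 3.70 to 4.69 times above it, and RAD54L and FANCA at 1.27 and 1.25 times.

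The other 6 genes with at least 10% shared moved less. RAD54L shared 25.1% with LRRC41, FANCA 23.6% with ZNF276 and FANCL 18.7% with VRK2. ATR shared 16.4% with the pseudogene EIF2AK1P1, EME1 16.4% with LRRC59 and MUS81 13.9% with CFL1. Their computed levels became 1.11 to 1.27 times as high, while those of genes without overlap became 0.953 times as high because the total was rescaled. BRCA1, CHEK2 and FANCD2 have partial pseudogene copies, and since reads mapping to several places were not counted, their levels may be somewhat low by an amount the counts do not show.

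Many of the genes shared a start region with another gene. Within 1000 bases of their 5′ ends, 16 of the 40 had a protein-coding gene that diverged on the opposite strand, beside 12.9% of all and 18.1% of expressed protein-coding genes. Some of these neighbours were transcribed as strongly as the repair gene. NBR1, a cargo receptor of autophagy whose outermost 5′ exon base lies 236 bases from that of BRCA1, was at 51.0 ± 1.07 TPM against 37.6 ± 1.56 for BRCA1. DCTN5 at 23.4 ± 0.453 TPM was near PALB2 at 19.4 ± 0.561 TPM, and ZFYVE21 at 20.3 ± 0.324 TPM was near XRCC3. NPAT, the activator of histone genes that overlaps the start of ATM, was at 22.1 ± 1.23 TPM, above ATM at 12.9 ± 0.229 TPM. FKBP3 at 65.99 ± 2.04 TPM was well above FANCM at 15.5 ± 0.750 TPM, and MRPL27 at 39.4 ± 3.53 TPM was above EME1.

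Other neighbours were nearly silent beside an active repair gene. ZAR1L, a gene known from oocytes, was at 1.07 ± 0.223 TPM against 48.9 ± 1.06 TPM for BRCA2. Its annotated 5′ end lies 130 bases from that of BRCA2. TEX14, a testis gene next to RAD51C, was at 0.331 ± 0.0586 TPM, and FNDC8, 57 bases from RAD51D, was at 0.565 ± 0.265 TPM. IL5, next to RAD50, received 2 reads in all, and PURG, 86 bases from WRN, received 10. Neighbouring annotated 5′ ends thus went with similar levels in some pairs and with very unequal levels in others. Of the 17 protein-coding neighbours 11 reached 5 TPM, a level below the median of all protein-coding genes, 5.88 TPM.

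The libraries differed little for these genes. The SD over the libraries had a median of 3.04% of the mean over the 40 genes, with a range of 0.635% to 14.0%, beside a median of 3.53% over 11532 expressed protein-coding genes in the same range of levels. The largest range over the libraries was 0.41 on the log2 scale of TPM, in ATRIP, and the median range was 0.08. Each gene was tested for a difference between the 3 libraries beyond counting error, over 22229 genes with at least 30 reads and with Benjamini-Hochberg adjustment over all of them. The mates of a read pair were counted separately, so the chi-square was divided by 2. The test compared libraries of 1 line, not conditions.

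At an adjusted p under 0.05, 0 of the 40 genes differed between libraries, beside 0.792% of all genes tested (176 genes). At an unadjusted p under 0.05 there were 6, BRIP1, BARD1, XRCC3, RAD52, BRCA1 and WRN (15.0%), beside 11.3% of all genes. The smallest adjusted p was 0.21, that of BRIP1, whose replicate 2 was the highest library. Without the division by 2, which counts each mate as independent, 7 of 40 genes passed (17.5%), beside 17.3% of all genes. These were the 6 above and BLM. On either count the share of the genes that differed was near that of all genes.

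**Figure D5:**
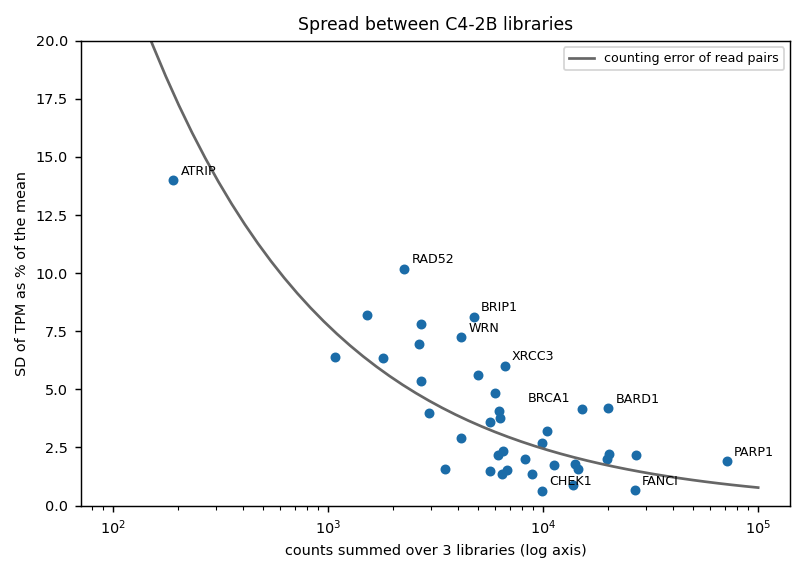
SD of TPM over the 3 libraries as a percentage of the mean (y axis) against the reads summed over the libraries (x axis, log) for each of the 40 genes, with a line for the counting error of read pairs. ATRIP has the fewest reads, 191, and the widest spread, 14.0%, below the line. RAD52, BRIP1 and WRN are among the genes above it, and counting error alone would also leave some genes above.

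The order of the replicates was uneven. Over the 40 genes, 20 were lowest in replicate 1 (beside 37.7% of expressed protein-coding genes in the same range) and 20 were highest in replicate 3 (beside 38.5%). After TMM scaling 18 were lowest in replicate 1, beside 33.0%. Replicate 1 also had the fewest reads, and the part of depth in this was not tested.

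Among 75 further genes of the same pathways, 72 were expressed in all libraries and the median level was 23.5 TPM, close to the 23.7 TPM of the 40 genes. Above the median of expressed protein-coding genes lay 40 of the 75. The highest were H2AX, the histone variant phosphorylated at breaks, at 562 ± 14.7 TPM, XRCC6, the Ku70 subunit of end joining, at 463 ± 5.03 TPM, and PRKDC, the kinase that Ku recruits, at 295.5 ± 3.09 TPM. Each of these exceeded PARP1 in level in every library. The lowest were DMC1, the recombinase of meiosis, at 0.712 ± 0.212 TPM, NHEJ1, an end joining factor, at 0.459 ± 0.112 TPM, and APLF at 0.0456 ± 0.0307 TPM. NHEJ1 shared 65.4% of its exon bases with other genes. Of the 74 genes with enough reads to be tested, 0 differed between libraries at an adjusted p under 0.05 and 8 did at an unadjusted p under 0.05 (10.8%), beside the 11.3% of all genes.

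Level and gene length were not related across the 40 genes when reads were divided by length. Spearman's rho of TPM against exon length was 0.02 over the 40 genes, and that of CPM against exon length was 0.49. These values describe genes of the same 3 libraries, which are not independent replicates.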

How the data were processed

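RNA of C4-2B cells was sequenced in pairs from rRNA-depleted directional libraries. Per the submitters' processing notes the authors used Trim Galore, STAR 2.7.0f on GRCh38, and featureCounts of Subread 1.6.3. The authors deposited raw counts, that is whole numbers of reads assigned to each gene of Ensembl release 90. Their command, per the file headers, set no option for strand, pairs or overlapping genes, so strand was ignored, mates were counted separately, and reads touching several genes or mapping to several places were left out. The deposited length column gives exon bases per gene. There were 0 per-sample columns left unmapped.

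TPM was computed from counts and length over all genes (Python 3.11.15, pandas 2.3.3). Libraries were scaled by TMM (edgeR 4.0.16), with size factors of DESeq2 1.42.0 as an alternative. A chi-square test with 2 degrees of freedom, divided by 2, compared the 3 libraries for each gene, adjusted by Benjamini-Hochberg (scipy 1.17.1), and was tested on simulated data. The study's comparison between lines was not run, since 1 group was analysed. p-values measure only the spread between these libraries.

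The genes, lists, pairs and motifs were chosen with earlier results of these data known. All 40 genes could be named. Other genes were named if they were cell type markers, the 3 highest or 3 lowest of the pathway list, head to head within 1000 bases, or covered at least 10% of a gene's exon bases. Symbols were matched through GENCODE 44 for 57532 of 58302 identifiers, and coordinates are those of Ensembl 90 on GRCh38. Alternatives were CPM, other TPM totals, unshared length, other thresholds and scalings, and leaving out each replicate.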

Additional observations from a re-analysis of the deposited data

How the results depend on the processing

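The number of expressed genes was 40 under every alternative but a threshold of 5 TPM, where it was 38, with RAD50 and ATRIP lost. The median level of 23.7 moved to 45.2 as CPM, to 34.3 TPM with the 10 most abundant and the mitochondrial genes left out of the total (RN7SL2 alone takes 19.6% of it), to 33.0 TPM with protein-coding genes alone in the total, and to 27.3 TPM over unshared lengths. It was 23.66 to 23.8 TPM when 1 replicate was left out. The number of genes that differed between libraries was 0 under DESeq2 size factors, library totals, other count minimums and without each replicate, with a smallest adjusted p of 0.14 to 0.471 for any of the 40 genes, and 7 when the chi-square was not divided. The ratio of RAD51C to XRCC3 reversed to 0.296 over unshared lengths, and that of CHEK1 to CHEK2 to 1.54 as CPM. Levels are relative to each library's total, so their scale moves with what that total holds. No paired analysis was possible because only the C4-2B group was analysed. A mean over 3 libraries moves by less than its SD when 1 is dropped, so that check says little of stability. ATRIP rests on 191 reads over all libraries, and reads that touched its shared exon bases (74.3% of its exon bases) were left out.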
